A study of Mus musculus with 8 samples.

Results

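The transcripts described here encode 10 enzymes of glucose and glycogen breakdown, taken as 5 pairs of isoenzymes: the enolases Eno3 and Eno1, the phosphoglycerate mutases Pgam2 and Pgam1, the aldolases Aldoa and Aldoc, the lactate dehydrogenase subunits Ldha and Ldhb, and the glycogen phosphorylases Pygm and Pygl. They, and the gene lists set beside them, were chosen by name with earlier results of these data known. Counts of called genes in them are therefore descriptions. Of the 10, 9 have a row of their own in the authors' deposited table of 23235 rows, and Eno1 is found only in a row that joins its symbol with Gm5506. All 10 rows were among the 15783 that the authors tested. RNA was sequenced from normal tongues never exposed to 4-nitroquinoline 1-oxide (4-NQO, 5 samples) and from squamous cell carcinomas of the tongue that 4-NQO had induced (3 samples), all from female C57BL/6 mice. 4-NQO, a quinoline derivative given to rodents as a model carcinogen of the mouth, damages DNA by forming bulky adducts. The age of the mice, the dose and duration of 4-NQO, the part of the tongue taken and whether each sample came from its own animal are not among the details given.

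Glycolysis splits glucose into pyruvate, and lactate dehydrogenase turns pyruvate into lactate. Glycogen phosphorylase feeds the pathway by releasing glucose units from stored glycogen. Several of these steps have isoforms encoded by separate genes. Skeletal muscle, which fills much of the tongue, uses beta-enolase (Eno3), the muscle mutase (Pgam2) and muscle phosphorylase (Pygm), whereas most other cells use alpha-enolase (Eno1), the brain-type mutase (Pgam1) and liver or brain phosphorylase (Pygl, Pygb). The remaining pairs are not split so cleanly: Aldoa and Ldha are the main isoforms of fast muscle but are also made by most dividing cells, Aldoc is the brain aldolase, and Ldhb is the subunit typical of heart and oxidative tissue.

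The values are the authors' own. Their deposited table has 1 FPKM (a fragment count divided by transcript length and by library size) per group and none per sample, so the spread between samples and the depth of each library cannot be seen. Each row also has a log2 fold change of carcinoma over normal tongue, a test statistic, a p-value and a q-value. A ± after a log2 fold change is the standard error implied by that test. By the table's own loci, whose mouse build is not stated, Eno3 (chr11:70470715-70476015), Pgam2 (chr11:5701640-5703799) and Aldoc (chr11:78137700-78140262) lie on chromosome 11, and Pygm (chr19:6384429-6398459) and Pgam1 (chr19:41986361-41993155) on chromosome 19. Aldoa (chr7:133938748-133943961) and Ldha (chr7:54101174-54110997) share chromosome 7, Ldhb is at chr6:142438769-142456463 and Pygl at chr12:71291802-71328670. In bulk tissue, fewer cells of a type and less RNA per cell cannot be told apart.

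None of the 10 transcripts passed a q of 0.05 in the authors' deposited table, in which 6.26% of tested rows did (3.07% higher in tumours and 3.19% lower). The sources do not name the program behind that test. Ldhb, Pgam2 and Pygm, with lower values in tumours, and Pgam1, with a higher value, had an unadjusted p under 0.05 in the deposited test. The share of all tested rows under that p was not counted, so these members have no background to be set against. With the deposited p-values adjusted by the Benjamini-Hochberg method over all tested rows, Ldhb passed (adjusted p = 0.0398), where 9% of all tested rows did. It also passed when that method was run over rows with at least 1 FPKM in both groups (adjusted p = 0.0443, 7.81% of those rows called), and no member passed a deposited q of 0.01, which 3.62% of tested rows did. Directions were evenly divided, with 5 negative and 5 positive fold changes, and the 5 negative ones were Eno3, Pgam2, Aldoa, Pygm and Ldhb.

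The 3 isoforms that belong to muscle alone had fold changes within a narrow range. Eno3 was listed at 1642 FPKM in the normal group and 521 in the tumour group (log2 fold change −1.66 ± 1.32, q = 1.00). Pgam2 was listed at 791 and 282 FPKM (−1.49 ± 0.71, q = 0.491), and Pygm at 636 and 197 FPKM (−1.69 ± 0.83, q = 0.540). The listed tumour levels were thus lower by factors of 3.15, 2.80 and 3.23, and all 3 transcripts were still listed at 197 FPKM or more. Their 95% intervals ran from −4.24 to 0.92 for Eno3, from −2.87 to −0.10 for Pgam2 and from −3.32 to −0.06 for Pygm.

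Their non-muscle partners had positive fold changes of unequal size. Pgam1, which converts 3-phosphoglycerate to 2-phosphoglycerate in most tissues, was listed at 78.6 FPKM without 4-NQO and 302 in the carcinomas (1.94 ± 0.78, q = 0.262). Eno1, which makes phosphoenolpyruvate at the next step, was listed at 83.6 and 202 FPKM in its joined row (1.27 ± 1.26, q = 1.00). Liver phosphorylase, Pygl, was low in both groups, at 2.36 and 2.70 FPKM (0.19 ± 0.55, q = 1.00). Pgam1 is the only transcript of these 3 whose 95% interval lies above 0, from 0.42 to 3.46.

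The remaining pairs hold the isoforms that muscle shares with other cells. Aldoa had the highest level of the 10 in both groups, at 2942 and 1304 FPKM (−1.17 ± 1.57, q = 1.00). Aldoc was listed at 5.20 and 7.14 FPKM (0.46 ± 0.52, q = 1.00). Ldha, the subunit that favours lactate formation, was listed at 574 and 729 FPKM (0.34 ± 1.11, q = 1.00), a ratio of 1.27. Ldhb was listed at 367 and 116 FPKM (−1.66 ± 0.56, q = 0.101), the smallest q among the 10 and a fold change close to those of Eno3 and Pygm. The interval for Ldha, from −1.83 to 2.52, includes the fold changes of both Aldoa and Pgam1.

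**Figure D1:**
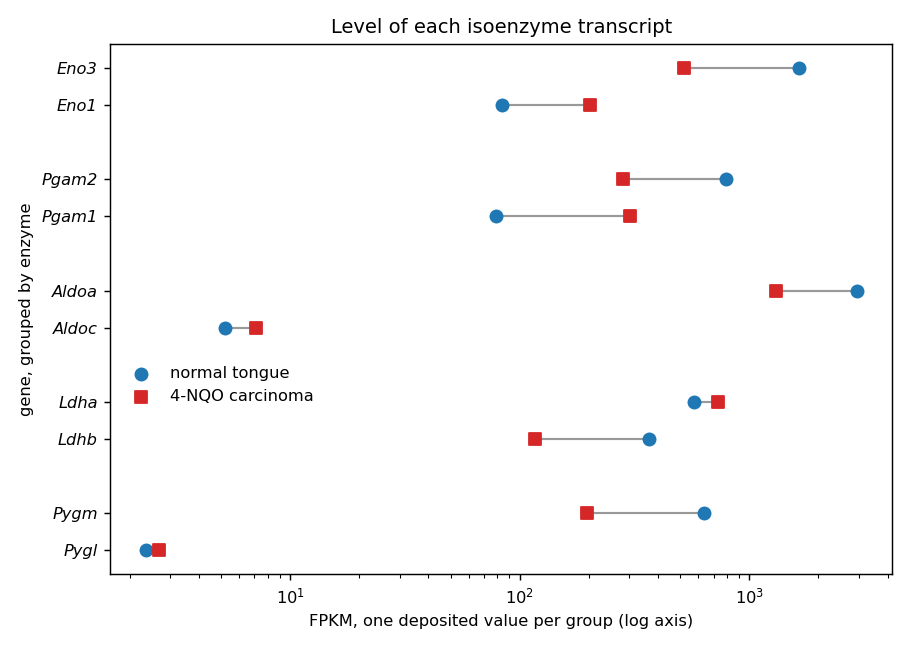
Deposited FPKM of each isoenzyme transcript (log axis) in normal tongue (circles) and 4-NQO carcinomas (squares), a single value per group with no error available. Eno3, Pgam2, Aldoa, Ldhb and Pygm sit to the left in carcinomas, Eno1 and Pgam1 to the right, and Aldoc and Pygl lie under 10 FPKM in both groups.

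**Figure D2:**
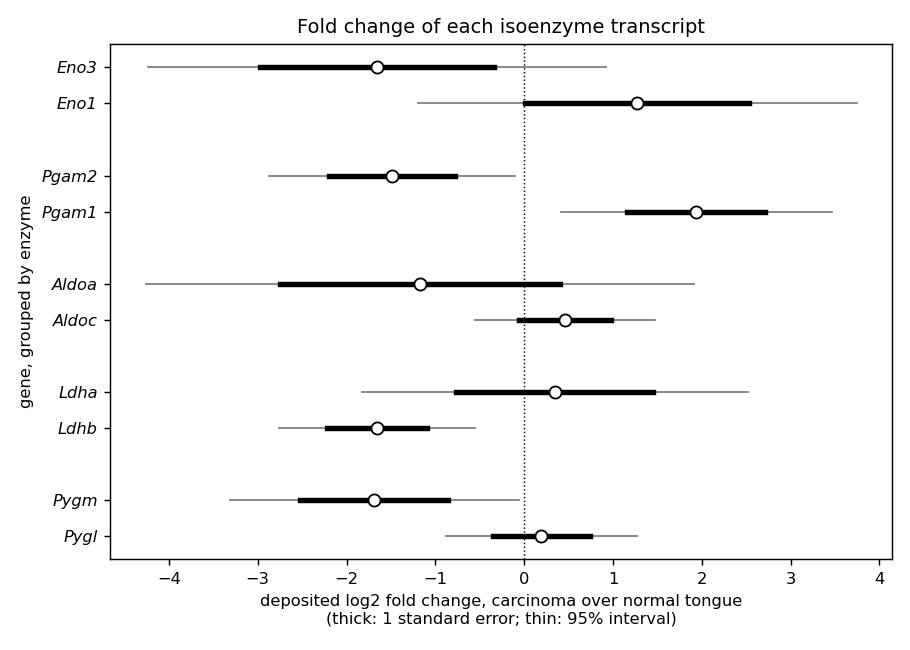
Deposited log2 fold change of carcinoma over normal tongue for each transcript (circles), with 1 standard error (thick bars) and the 95% interval (thin bars). The intervals of Pgam2, Pygm and Ldhb lie below 0 and that of Pgam1 above 0, while the other 6 cross it, and no transcript passed a q of 0.05.

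Within each pair, the balance of isoforms can be read on the FPKM scale because FPKM is scaled to transcript length. Pgam2 made up 91.0% of the summed FPKM of the mutase pair in normal tongue and 48.3% in tumours, so that the 2 mutases stood near parity there. The log2 fold change of Pgam1 exceeded that of Pgam2 by 3.43 ± 1.05, with an interval from 1.37 to 5.48. Eno3 made up 95.2% of the enolase pair without 4-NQO and 72.1% in carcinomas, and the fold change of Eno1 exceeded that of Eno3 by 2.93 ± 1.82 (interval −0.64 to 6.50). These differences have no test: their standard errors combine those of both genes as if independent, and both genes were measured in the same samples.

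In the phosphorylase and aldolase pairs, the muscle-type isoform was nearly the whole pair in both groups. Pygm was 99.6% of the phosphorylase pair in normal tongue and 98.7% in tumours, although the fold change of Pygl exceeded that of Pygm by 1.88 ± 0.99. Aldoa was 99.8% and 99.5% of the aldolase pair, with a difference of 1.63 ± 1.66. Lactate dehydrogenase went the opposite way: the muscle-type subunit Ldha was 61.0% of its pair without 4-NQO and 86.2% in carcinomas, and the fold change of Ldhb lay below that of Ldha (−2.00 ± 1.24). Of the 5 pairs, the mutases are the only pair whose interval for the difference excludes 0.

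The summed level of every pair was lower in tumours. The sums were 1726 and 723 FPKM for the enolases, 870 and 584 for the mutases, 2947 and 1311 for the aldolases, and 638 and 200 for the phosphorylases. Lactate dehydrogenase was the closest to even, at 942 and 846 FPKM. No error can be given for these sums.

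**Figure D3:**
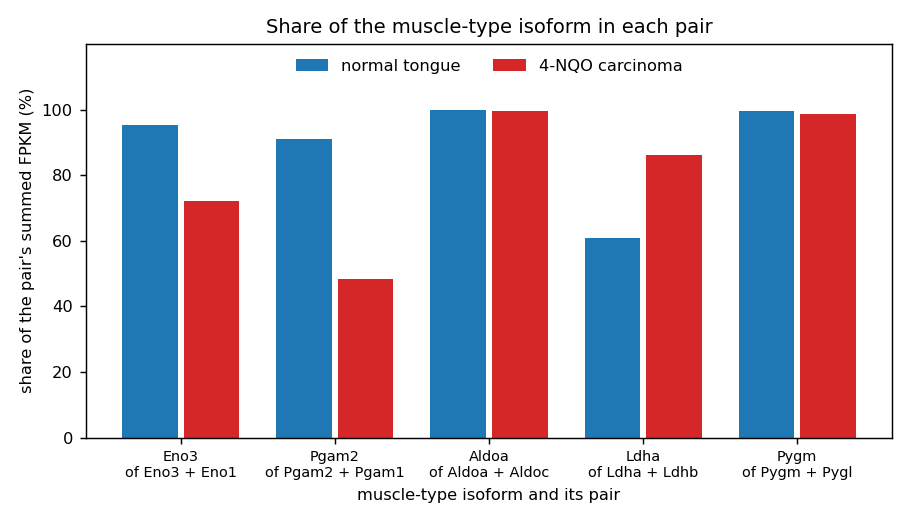
Share of the muscle-type isoform in the summed FPKM of its pair (%) in normal tongue and in 4-NQO carcinomas, a single value per group. The share of Pgam2 went from 91.0% to 48.3% and that of Eno3 from 95.2% to 72.1%, Aldoa and Pygm stayed above 98%, and Ldha went from 61.0% to 86.2%.

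The only called row among the loci listed for the 10 enzymes is listed at that of Eno1. The table lists 2 rows at chr4:149611306-149622982. That named Gm5506 rose from 23.0 to 70.6 FPKM (1.62 ± 0.49, q = 0.0420 in the authors' deposited table). Its accession now belongs in RefSeq to Eno1b, which GENCODE tags as a retrogene. Eno1b lies on chromosome 18 in RefSeq, so the call may not belong to the chromosome 4 locus where it is listed. Gm5506 is not a listed member. The other row is the joined Eno1 row, with a larger standard error at a smaller fold change. The sum of both rows was 107 and 273 FPKM (log2 ratio 1.35), and with it the enolase pair difference became 3.01.

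Near-identical copies limit what a value can be assigned to. Of all 50-base stretches of the Pgam1 coding sequence, 100% also occur in transcripts of other genes in the GENCODE M21 set, most of all in the pseudogene Pgam1-ps2, and for Eno1 the share was 83.3%. The corresponding shares were 35.6% for Ldhb, 28.4% for Ldha and 16.8% for Aldoa, 1.44% or less for Pygl and Pygm, and 0% for Eno3, Pgam2 and Aldoc. The sources do not say how the authors assigned reads among copies, so the levels of Pgam1 and Eno1 are uncertain in that respect. Partners of a pair did not share any such stretch: their coding sequences were 73.4% to 77.8% identical.

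The promoters differ in their letters, and those of both mutases and both phosphorylases are printed with those of Eno3 and Ldha. Each sequence is the 250 bases before the RefSeq start of transcription (GRCm38.p6), 5′ to 3′ on the strand of the gene. For Pgam1, Pgam2, Eno3 and the printed Ldha window, no GENCODE M21 transcript of the gene matched that start. The same holds for the Eno1 window at chr4:150236458-150236707, which is not printed. Promoter coordinates cannot be set beside the deposited loci, where Ldha is at chr7:54101174-54110997. Capitals mark the motifs named after them, searched on both strands. For Pgam1 (chr19:41911621-41911870, plus strand), Pygl (chr12:70227684-70227933, minus strand) and Ldha (chr7:46845554-46845803, plus strand) these are the cores ACGTG and GCGTG of the element bound by hypoxia-inducible factors, in Ldha ACGTG alone. For Pgam2 (chr11:5803797-5804046, minus strand) they are the E-box CANNTG, the class of site bound by MyoD and its relatives, and a site of the muscle factor MEF2. For Pygm (chr19:6384158-6384407, plus strand) and Eno3 (chr11:70656926-70657175, plus strand) they are E-boxes and hypoxia cores.
Pgam1: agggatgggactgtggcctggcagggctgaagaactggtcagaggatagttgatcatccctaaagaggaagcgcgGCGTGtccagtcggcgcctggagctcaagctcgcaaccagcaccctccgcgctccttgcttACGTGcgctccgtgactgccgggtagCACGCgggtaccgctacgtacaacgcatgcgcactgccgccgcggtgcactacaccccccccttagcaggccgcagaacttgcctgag
Pgam2: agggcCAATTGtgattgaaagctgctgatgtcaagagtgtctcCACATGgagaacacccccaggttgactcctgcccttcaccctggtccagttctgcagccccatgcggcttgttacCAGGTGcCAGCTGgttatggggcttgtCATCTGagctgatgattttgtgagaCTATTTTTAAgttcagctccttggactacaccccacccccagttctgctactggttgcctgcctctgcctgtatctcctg
Pygl: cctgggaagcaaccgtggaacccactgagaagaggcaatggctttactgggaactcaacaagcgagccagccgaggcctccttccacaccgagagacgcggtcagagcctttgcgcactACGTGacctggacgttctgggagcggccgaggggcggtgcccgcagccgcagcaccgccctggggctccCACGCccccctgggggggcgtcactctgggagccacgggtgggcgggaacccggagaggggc
Pygm: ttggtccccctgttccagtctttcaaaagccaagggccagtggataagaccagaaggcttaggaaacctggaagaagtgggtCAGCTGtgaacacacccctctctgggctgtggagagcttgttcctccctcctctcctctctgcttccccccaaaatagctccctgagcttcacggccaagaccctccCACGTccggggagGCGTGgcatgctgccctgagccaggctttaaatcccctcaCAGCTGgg
Eno3: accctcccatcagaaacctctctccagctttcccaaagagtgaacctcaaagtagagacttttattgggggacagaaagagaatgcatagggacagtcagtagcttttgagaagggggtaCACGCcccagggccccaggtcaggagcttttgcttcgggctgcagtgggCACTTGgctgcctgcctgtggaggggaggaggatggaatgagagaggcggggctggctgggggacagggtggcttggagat
Ldha: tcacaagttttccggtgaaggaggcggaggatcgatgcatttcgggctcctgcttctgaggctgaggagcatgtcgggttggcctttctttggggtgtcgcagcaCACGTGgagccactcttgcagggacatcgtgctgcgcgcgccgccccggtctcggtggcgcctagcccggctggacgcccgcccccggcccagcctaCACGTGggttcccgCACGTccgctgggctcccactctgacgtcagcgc

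The Pgam2 window held 5 E-boxes and the MEF2 site, which lies 80 to 71 bases before the start. The MEF2 search was added after the promoters had been seen. Over 32851 windows of this length, 66.2% held an E-box and 2.92% a MEF2 match. Pygm held 2 E-boxes, while Pgam1 and Pygl held none. In the enolase pair the Eno3 window held 1 E-box and the 3 Eno1 windows 2, 0 and 0, so the pair's order depends on the start used. Ldha has 2 windows, and the printed one held 5 matches to ACGTG, of which 4 come from 2 copies of CACGTG that read the same on both strands and are E-boxes too. The other (chr7:46846832-46847081) held no ACGTG, 1 GCGTG and 2 E-boxes. Of the other printed windows, Pgam1, Pygl and Pygm held 1 ACGTG each, and 16.6% of all windows held this core. GCGTG, present in 28.2% of all windows, was found in those of Pgam1, Pygl, Pygm and Eno3. No member window held TATAAA, which 12.4% of all windows do. A match is a description of letters and not a measured site.

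The number of CG dinucleotides differed between the partners of 3 pairs whatever the start, with a median of 6 over all windows. There was 1 in the Pgam2 window against 22 in Pgam1, 4 in Pygm against 20 in Pygl, and 3 in Eno3 against 9 to 21 in the windows of Eno1. The other pairs overlapped, with 14 in Ldhb and 9 to 25 in Ldha, and 3 to 5 in Aldoc and 0 to 21 in Aldoa. The starts of a gene cannot be told apart in the deposited table, which gives 1 value for all transcripts of a gene.

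Most of the isoenzyme rows had a larger standard error than the typical row. Over all tested rows the median standard error was 0.53, and 9 of the 10 isoenzyme rows exceeded it. By FPKM in the higher group, the median was 0.88 under 1 FPKM, 0.55 at 1 to 10 and 0.46 at 10 to 100. It was 0.54 at 100 to 500 FPKM and 0.75 for the 240 rows at 500 or more. Eno1 (1.26) and Pgam1 (0.78) fall in the 100 to 500 band, above its upper quartile of 0.66, and Ldhb (0.56) lies below that quartile. At its own standard error, and at the largest p that was called (0.0013), Aldoa would have needed a change of at least 33.5-fold, Eno3 18.8-fold, Eno1 16.7-fold and Ldha 11.9-fold. For Ldhb the corresponding change was 3.51-fold, beside the 3.16-fold listed.

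**Figure D4:**
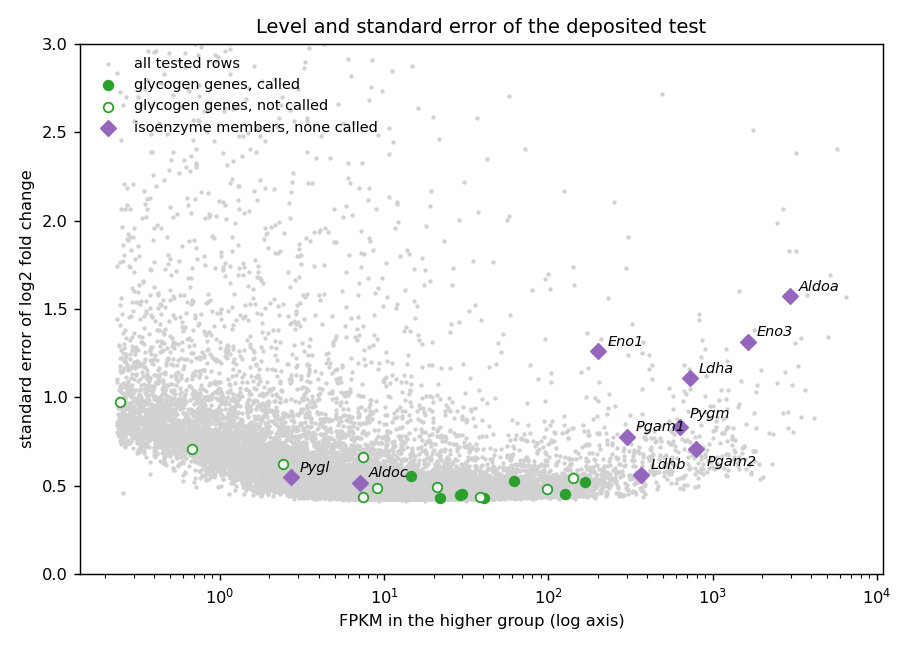
Standard error of the deposited log2 fold change against the FPKM of the higher group (log axis) for all tested rows (grey), glycogen genes (circles, filled where called) and the isoenzyme members (diamonds); 414 rows lie above the axis limit of 3. The abundant members lie above the called glycogen genes, between 0.56 for Ldhb and 1.57 for Aldoa.

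The other genes of glycolysis moved in both directions. Of 28 tested members of a list of 31, the authors' deposited table called 2 higher and 2 lower (14.3%, beside 6.26% of all tested rows). The median log2 fold change was −0.30, beside −0.04 over all tested rows. At glucose entry, the insulin-regulated transporter of muscle and fat, Slc2a4, fell from 150 to 41.7 FPKM (−1.85 ± 0.51, q = 0.0148), while the widely expressed transporter Slc2a1 rose (4.06 ± 0.94, q = 0.00124). At the committed step the liver phosphofructokinase Pfkl rose from 14.2 to 47.9 FPKM (1.75 ± 0.51, q = 0.0282). The muscle isoform Pfkm was listed at 724 and 195 FPKM (−1.90 ± 1.05, q = 0.708). Pfkfb1, which sets the level of the activator fructose 2,6-bisphosphate in liver and muscle, fell from 13.8 to 4.20 FPKM (−1.71 ± 0.50, q = 0.0252).

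Steps with a single main gene had fold changes between −0.63 and 0.27, none called, in the same table. Gpi1, the isomerase of glucose 6-phosphate, had −0.34 ± 0.65, the triosephosphate isomerase Tpi1 −0.33 ± 0.79 and the phosphoglycerate kinase Pgk1 0.27 ± 0.72. Gapdh was listed at 3455 and 2228 FPKM (−0.63 ± 1.34), and pyruvate kinase Pkm, under its older symbol, at 713 and 829 FPKM (0.22 ± 1.47). The intervals of Gapdh and Pkm are wide enough to include the fold change of Pygm. The lactate exporter Slc16a3 was listed at 10.8 and 28.5 FPKM (1.40 ± 0.51, q = 0.153).

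Glycogen metabolism had more calls, all of them decreases. Of 18 tested genes 8 fell and none rose (44.4%, beside 6.26% of all tested rows), with a median log2 fold change of −1.39. Glycogenin, Gyg, which primes glycogen synthesis, fell from 127 to 37.0 FPKM (−1.78 ± 0.45, q = 0.00512). Ppp1r3a, which targets protein phosphatase 1 to glycogen in muscle, fell from 29.8 to 7.01 FPKM (−2.09 ± 0.45, q = 0.000355). The glycogen phosphatase laforin, Epm2a, fell by 2.11 ± 0.55 on the log2 scale (q = 0.00832). The branching enzyme Gbe1 and the UDP-glucose pyrophosphorylase Ugp2 were called lower as well.

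Phosphorylase kinase, which activates the phosphorylases, split by isoform. Its muscle subunits Phka1 and Phkg1 and the shared subunit Phkb fell (−1.68 ± 0.45, −1.82 ± 0.53 and −1.53 ± 0.43, q from 0.0103 to 0.0271 in the authors' deposited table). The liver-type subunits Phka2 and Phkg2 were listed at 2.33 and 2.44 FPKM and at 5.64 and 7.43 FPKM, neither called. The called muscle subunits had fold changes close to that of Pygm (−1.69 ± 0.83), which was not called. The brain phosphorylase Pygb was listed at 6.18 and 7.47 FPKM (0.27 ± 0.44, q = 1.00), and muscle glycogen synthase Gys1 at 142 and 52.2 FPKM (−1.44 ± 0.54, q = 0.194).

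**Figure D5:**
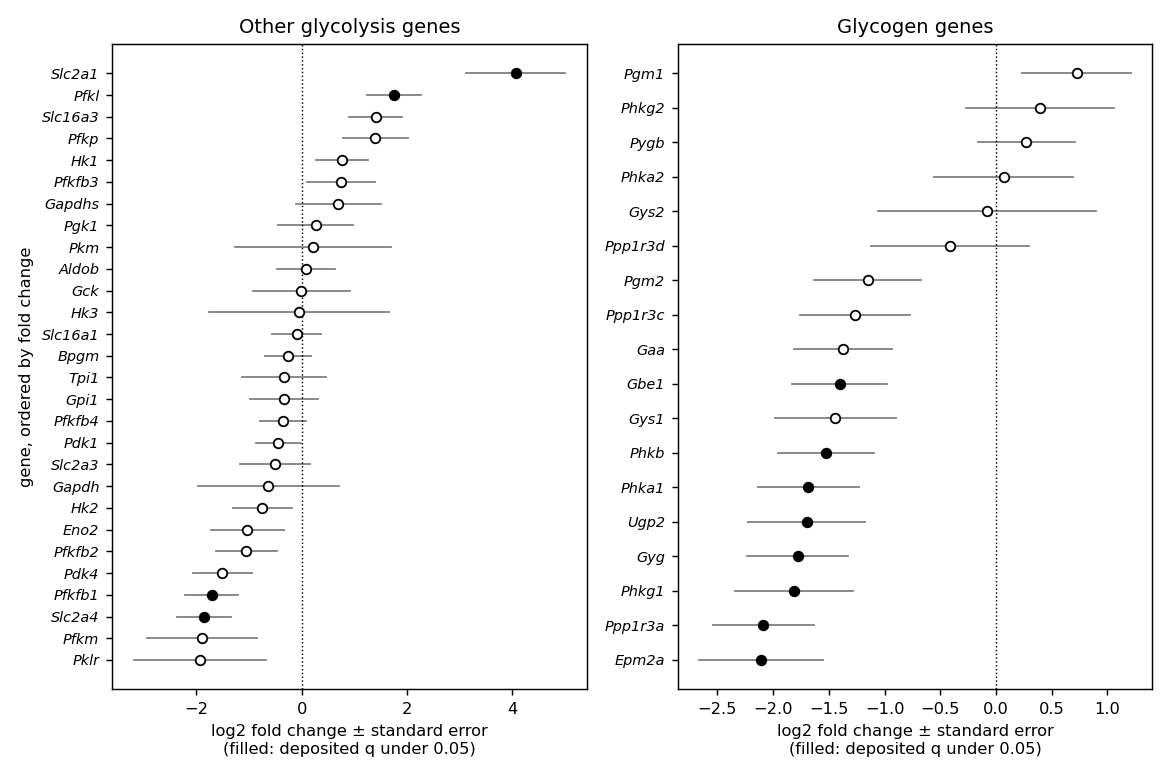
Deposited log2 fold change ± standard error for the tested genes of the other-glycolysis list (left) and the glycogen list (right), ordered by fold change and filled where the deposited q was under 0.05. Filled points lie on both sides of 0 for glycolysis and below 0 alone for glycogen genes, from Gbe1 at −1.40 to Epm2a at −2.11.

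Muscle and non-muscle isoforms of other enzymes and proteins were set beside the glycolytic pairs. These lists overlap those above: Pfkm, Pfkl, Slc2a4 and Slc2a1 are also in the glycolysis list. Phka1, Phka2, Phkg1 and Phkg2 are also in the glycogen list. The calls of Slc2a1, Pfkl, Slc2a4, Phka1 and Phkg1 were thus already counted and are not separate evidence. Of 13 such pairs 11 could be compared, since Ckm and Atp2a1 are listed at 0 in normal tongue with a failed estimate. In all 11 the non-muscle isoform had the higher fold change, by 0.44 to 5.91 on the log2 scale with a median of 2.21, and in 8 the interval of the difference lay above 0. The same held for 4 of the 5 glycolytic pairs, and for 1 of them with its interval. Of the 13 non-muscle isoforms 2 rose and none fell (15.4%, beside 3.07% of all tested rows higher). Of the 11 muscle isoforms 5 fell and none rose (45.5%, beside 3.19% lower), among them AMP deaminase Ampd1 (−1.61 ± 0.46, q = 0.0206) and the muscle adenylosuccinate synthase Adssl1 (−1.97 ± 0.54, q = 0.0148). The lactate dehydrogenase pair is the single glycolytic pair with the opposite sign.

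Markers of the tissues in the samples are given beside these results. All 19 comparable skeletal muscle markers had negative fold changes, with a median of −1.60 and a summed level of 29806 and 11091 FPKM. Of the 19, 3 were called lower (Myh2, Tnnt1 and Myot, 15.8%, beside 3.19% of all tested rows). A further 4, Acta1, Myh1, Myh4 and Tnnt3, are listed at 0 in normal tongue by failed estimation, so their true level is not known, and slow myosin Myh7 was listed at 0.102 and 0.0402 FPKM and not tested. The fold changes of Eno3, Pgam2 and Pygm, from −1.69 to −1.49, lie on both sides of that median. All 7 comparable epithelial markers had positive fold changes (median 1.35, summed level 1121 and 3833 FPKM) and none passed a q of 0.05, and Krt14, Krt13 and Krt4 are listed at 0 in at least 1 group by failed estimation. Of 8 nerve markers 7 were negative (median −1.34, summed level 158 and 56.7 FPKM), where Aldoc, the brain isoform, was positive. The part of tissue composition in the isoenzyme values was not tested.

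Red cell and adipocyte markers also had negative fold changes. The 6 red cell markers were all negative (median −1.62, summed level 992 and 349 FPKM). Slc4a1 alone of them was called (16.7%, beside 3.19% of all tested rows lower). The 4 adipocyte markers were negative too (median −1.36, 271 and 180 FPKM, none called). Most of that sum was Fabp4, at 264 and 177 FPKM, with the smaller fold change of −0.58 ± 0.49. With a pseudocount of 1 FPKM the median was −0.72 for adipocyte, −1.42 for red cell and −1.54 for muscle markers. The part of red cells and adipocytes in the isoenzyme values was not tested. Of 8 neutrophil markers with a row 3 were called higher (S100a8, S100a9 and Mmp9, 37.5%, beside 3.07% of all tested rows). Fold changes were positive in 6 and negative in 2, lowest in Mmp8 (−1.17 ± 1.09). The summed level was 114 and 7074 FPKM, nearly all of it S100a8 and S100a9, which activated epithelium also makes. Among 14 genes regulated by or encoding hypoxia-inducible factors 4 were called higher and none lower (28.6%, beside 3.07% of all tested rows higher). The 14 had a median of 0.63, with 10 positive and 4 negative fold changes. The called genes were Slc2a1, already counted in lists above, Car9, Adm and the factor Hif1a. Hif1a rose from 14.4 to 124 FPKM (3.11 ± 0.89, q = 0.0234). Epas1, a relative of Hif1a, was listed at 45.7 and 21.2 FPKM (−1.11 ± 0.48, q = 0.365). Ldha, Pgam1, Eno1 and Aldoa, which hypoxia-inducible factors are known to induce, had fold changes from −1.17 to 1.94, and none passed.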

How the data were processed

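Poly(A) RNA sequencing was used per the labels' protocols (column-purified, DNase-treated RNA; Illumina TruSeq RNA). GSNAP 2011.11.17, edgeR and GRCh37 (a human assembly) appear in the submitters' processing notes, without a role. The authors deposited 1 FPKM value per group and gene, read as FPKM from the table's layout. The authors' p-value and q-value are used as deposited. The mouse build of the loci is not given in any source used, and loci are printed counted from 1. For Ldha, among others, the locus does not match the GRCm38.p6 coordinates of the promoter. The authors' log2 fold change was checked against their FPKM ratio and is the same. Dividing it by their test statistic, whose two-sided normal p matches the deposited p-value within 2.81e-06, gave the standard error.

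Rows of status OK were compared, 15783 of 23235, and a gene was called at a deposited q under 0.05. No new test between groups was possible, and depth is unknown. Gene lists and members were chosen with earlier results of these data known, and a gene withheld from the glycogen list is not reported here. Named genes are the members, genes of the pathway and isoform lists, and of marker lists the called, most abundant and most changed genes. Calculations used pandas 2.3.3, scipy 1.17.1 and biopython 1.88. On simulated data the Benjamini-Hochberg adjustment was compared with that of a second program. The standard error was recovered there by construction, which is no test of it. Shares, pair differences, list counts and sequence counts were not tested on simulated data. Promoters are from RefSeq (GRCm38.p6, with a window for all 10 members) and coding sequences from GENCODE M21. Alternatives were a pseudocount of 1 FPKM, re-centring, another adjustment, a stricter threshold and a filter at 1 FPKM.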

Additional observations from a re-analysis of the deposited data

How the results depend on the processing

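Of 76 recomputed values 72 were rated the same as the reported value. For a member's fold change this meant the same direction and a shift of less than 1 standard error. Counts had to stay within 1.5 times. The isoform shares have no standard error, so that limit has no meaning for them. The count of called isoenzyme members was 0 with the deposited q, 0 at a stricter q of 0.01, 1 with the Benjamini-Hochberg method over all tested rows (Ldhb, where 9% of rows were called) and 1 with that method over rows with at least 1 FPKM in both groups (7.81% called). With the Benjamini-Hochberg method over all tested rows the called muscle markers went from 3 to 5 and epithelial markers from 0 to 1, and the glycogen genes from 8 to 9. A pseudocount of 1 FPKM or re-centring on the median of all tested rows reversed no sign among the members, the pairs or the list medians. For the members this was fixed in advance. An equal pseudocount cannot reverse a gene's sign, and the median (−0.04) is smaller in size than the smallest member fold change (Pygl, 0.19). In a pair difference re-centring cancels. The count of 72 includes values whose direction was fixed in this way. Summing both rows listed at the Eno1 locus, chosen after seeing the data, moved the enolase pair difference from 2.93 to 3.01. Leaving out samples in turn was not possible, since the deposited table has no values per sample. No paired analysis was possible because the groups share no sample numbers and the columns carry none. The unknown depth and the single value per group limit every statement on spread.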

Other observations

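Hexokinase and phosphofructokinase, further steps with several isoforms, also differed in isoform shares in the authors' deposited table. Hk2, the hexokinase typical of muscle and fat, made up 76.0% of the summed FPKM of Hk1, Hk2 and Hk3 in normal tongue and 52.7% in tumours, and Hk1, the widely expressed hexokinase, 23.4% and 46.6%. The summed level was 88.9 FPKM and 76.2 FPKM, and none of the 3 was called. Pfkm made up 96.6% of the phosphofructokinases in normal tongue and 71.5% in tumours, Pfkl 1.89% and 17.6%, and the platelet isoform Pfkp 1.50% and 10.9%. Of these Pfkl was called. These shares have no error, since the table holds a single value per group.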
